A study of Drosophila melanogaster with 3 samples.

Results

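The PH4alpha genes of Drosophila melanogaster encode alpha subunits of prolyl 4-hydroxylase. The 8 genes described here were the rows of the deposited table whose FlyBase identifier carries the symbol PH4alphaSG1, PH4alphaSG2, PH4alphaEFB, PH4alphaMP, PH4alphaPV, PH4alphaNE1, PH4alphaNE2 or PH4alphaNE3. They were chosen by name, not by level, from the 17278 genes of the table, and all 8 had a row. RNA sequencing was done on poly(A) RNA from salivary glands of third-instar (L3) larvae raised at 25 degrees, with 50 glands pooled in each sample. The 3 samples form a single group of controls, for which the titles give an Oregon stock and the genotype field gives yw. No treated or mutant group is compared here, so the values are levels within this tissue and their spread between libraries. Nothing in the labels says that the samples came from separate cultures, and the spread may be technical.

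Prolyl 4-hydroxylase works in the endoplasmic reticulum (ER), where it adds a hydroxyl group to proline residues of secreted proteins, using iron, oxygen, ascorbate and 2-oxoglutarate. In vertebrates, the enzyme is a tetramer of catalytic alpha subunits with beta subunits that are protein disulfide isomerase, and its best known substrate is collagen, whose triple helix is stabilised by hydroxyproline. The fly genes were named for where their RNA is found in the embryo: SG for the salivary gland, EFB for epidermis and fat body, MP for mouth parts, PV for the proventriculus and NE for those with no expression seen in the embryo. In the embryo, the gland transcription factors Sage and Fork head are known to control PH4alphaSG1 and PH4alphaSG2, which keep the gland lumen open and even. PH4alphaEFB is known for its part in making collagen IV in the larval fat body.

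Levels are the authors' FPKM, in which fragments are divided by exon length, so genes of different length can be compared. They are also divided by a denominator that is fixed in each library. The number of fragments behind a value was recovered from the size of its steps. The denominators were below the recovered totals to a degree that differed by library, and folds between libraries carry this scaling. In replicates 1, 2 and 3, 678714, 874004 and 1185541 fragments were recovered outside rRNA genes, while rRNA genes and pseudogenes held 55.0%, 41.4% and 24.6% of all recovered fragments. For a gene with 2000 exon bases, 1 fragment is worth 1.0, 0.687 and 0.529 FPKM in these libraries, so levels near 1 FPKM rest on a few fragments. The tissue label was checked against the glue genes, whose products the gland secretes: all 8 listed were detected in every library, from Sgs1 at 5760 ± 1688 FPKM to Sgs7 at 311039 ± 52891 (SD, n = 3).

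Both genes named for the salivary gland were abundant in the larval gland, and the other 6 members were low or listed at 0. PH4alphaSG2 had a mean of 79.6 ± 28.4 FPKM and PH4alphaSG1 of 66.0 ± 29.4 (SD, n = 3). They ranked 599th and 715th by mean among the 13829 protein-coding genes, which put them above 95.7% and 94.8% of those genes. A mean of 10 FPKM or more was reached by 22.4% of protein-coding genes and, in this family, by these 2 members.

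PH4alphaSG2 (FBgn0039779) lies on chromosome 3R, positions 30490074 to 30491987 of the BDGP6.54 annotation, on the plus strand. It had 71.3 FPKM in replicate 1, 56.4 in replicate 2 and 111 in replicate 3, from 60, 69 and 177 fragments. Replicate 3 was the highest and replicate 2 the lowest. The exact 95% Poisson intervals were 54.4 to 91.8, 43.9 to 71.3 and 95.4 to 129 FPKM, so that replicate 3 lay above the other libraries by more than counting error.

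PH4alphaSG1 (FBgn0051014), on the minus strand of 3R at 30503665 to 30505661, showed the same order of libraries. Its levels were 58.6, 41.0 and 98.5 FPKM in replicates 1, 2 and 3, from 50, 51 and 159 fragments. The intervals were 43.5 to 77.2, 30.6 to 54.0 and 83.7 to 115 FPKM, again with replicate 3 apart from the others. These intervals cover counting error only, and PCR copies of a molecule are not told apart in them.

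PH4alphaEFB (FBgn0039776, 3R 30466050 to 30485799, plus strand) followed with a mean of 1.44 ± 1.28 FPKM (SD, n = 3), which was 2.16 without replicate 1 and 0.941 without replicate 2. It was listed at 0 in replicate 1, at 2.45 FPKM in replicate 2 and at 1.88 in replicate 3, from 0, 4 and 4 fragments. Since a true level of as many as 3 fragments can give a count of 0, the limit for this gene in replicate 1 is 2.67 FPKM. The absence there was therefore not distinguishable at this depth from the level in the other libraries.

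The MP and PV members each rested on 1 fragment in all 3 libraries together. PH4alphaMP (FBgn0026190, 3R 30491813 to 30496153, minus strand) was listed at 0 in replicates 1 and 2 and at 0.562 FPKM in replicate 3. PH4alphaPV (FBgn0051015, 3R 30646106 to 30648551, minus strand) was listed at 0 in replicates 1 and 3 and at 0.705 FPKM in replicate 2. Values from a single fragment set no order between them.

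The 3 NE members had no fragment in any library. They are PH4alphaNE1 (FBgn0039780, 3R 30496751 to 30500326, minus strand), PH4alphaNE2 (FBgn0039783, 3R 30510083 to 30512214, minus strand) and PH4alphaNE3 (FBgn0051017, 3R 30604181 to 30606144, plus strand). Over the 3 libraries together, 3 fragments would be 0.795, 0.775 and 0.849 FPKM for NE1, NE2 and NE3. Among protein-coding genes, 32.3% had no fragment in any library.

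**Figure D1:**
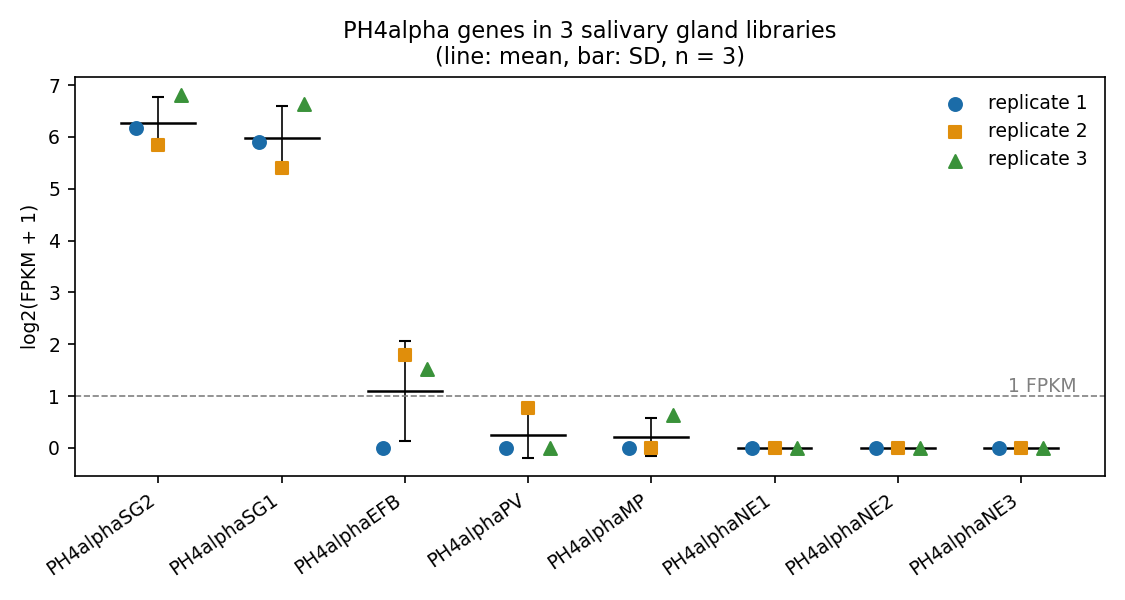
Level of each PH4alpha gene in each library as log2(FPKM + 1), ordered by mean FPKM; horizontal lines are means and bars the SD over 3 libraries. PH4alphaSG2 and PH4alphaSG1 lie near 6 in every library (means 6.28 and 5.98), PH4alphaEFB has a mean of 1.10, and the 3 NE genes lie at 0.

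A gene was called detected if no library had it under 1 FPKM. By this limit 2 of 8 members were detected, beside 33% of the 17142 annotated genes and 40.1% of the protein-coding genes. The count of members was thus not above the background, and the family's median of the mean levels, 0.211 FPKM, was below that of protein-coding genes, 0.847 FPKM. PH4alphaEFB was counted as well when replicate 1 was left out, which gave 3 members. That setting counted 43.0% of protein-coding genes. With any fragment in any library, 5 of 8 members were counted, beside 67.7% of protein-coding genes.

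Within the family as chosen by name, the SG pair supplied nearly all RNA. Genes related by sequence but without a PH4alpha symbol were not searched for, so the shares are of the named members only. SG1 and SG2 together held 110 of 110 family fragments in replicate 1, 120 of 125 in replicate 2 and 336 of 341 in replicate 3. These are shares of 100%, 96.0% and 98.5%, with 95% Wilson intervals of 96.6% to 100%, 91.0% to 98.3% and 96.6% to 99.4%. By summed FPKM the shares were 100%, 96.9% and 98.8%, so the result does not rest on gene length.

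For the 28 pairs of members, the differences within libraries on the log2(FPKM + 1) scale were put to an exact permutation test that flips their signs (two-sided). With 3 libraries the smallest p this test can give is 0.25, and with Benjamini-Hochberg adjustment over the pairs the smallest was 0.538, so no pair could pass. Sizes and counting intervals are given for this reason.

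The difference of PH4alphaSG2 from PH4alphaSG1 in log2(FPKM + 1) was 0.30 ± 0.14 (SD, n = 3, exact sign-flip p = 0.25), with SG2 higher in 3 of 3 libraries. The ratio of SG2 to SG1 was 1.22, 1.37 and 1.13 in replicates 1, 2 and 3. The exact 95% intervals of these ratios were 0.823 to 1.81, 0.942 to 2.01 and 0.907 to 1.41, all of which hold 1. Over the fragments of all libraries, the ratio per exon base was 1.19 (1.01 to 1.41). This interval, like those of the other ratios per exon base below, pools the libraries. It covers counting error only and no spread between libraries. The levels of the pair overlap between libraries, and their difference of means is smaller than the SD of either gene. Those SDs are over libraries, in which both genes had the same order. They are not the spread of the difference within libraries, which is the 0.14 given above.

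The step from PH4alphaSG1 down to PH4alphaEFB was larger than the spread, at 4.87 ± 1.16 in log2(FPKM + 1) (SD, n = 3, exact sign-flip p = 0.25). Every library had SG1 above EFB, and the values of the genes do not overlap. Per exon base, SG1 held 42.8 times the fragments of EFB (95% exact interval 21.4 to 100.1), and SG2 held 51.1 times (25.6 to 119). Against the members with 1 fragment, SG2 held 354 times the fragments of PV (63.1 to 14042) and 342 times those of MP (61.0 to 13559). For NE1, NE2 and NE3, the level of SG2 was 105, 108 and 98.6 times the limit of 3 fragments set over the 3 libraries. With counting error of SG2 included, the lower 95% exact limits of its ratio to NE1, NE2 and NE3 were 85.1, 87.3 and 79.7.

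Lower in the order, neighbours were not separated. The difference of PH4alphaEFB from PH4alphaPV in log2(FPKM + 1) was 0.85 ± 0.78 (SD, n = 3, exact sign-flip p = 0.5), with EFB higher in 2 of 3 libraries. The ratio of fragments per base was 6.94 (0.930 to 308). PV minus MP was 0.04 ± 0.71 (SD, n = 3, exact sign-flip p = 1). PV and MP also could not be told from the NE genes at this depth, since 1 fragment is under the limit that a count of 0 allows.

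All 8 members lie in a single stretch of 182.5 kb on chromosome 3R, with at most 94.1 kb between the starts of neighbouring members. The stretch holds 35 genes of the table, 27 of them outside the named family. The high members were not direct neighbours, since 11.7 kb separate PH4alphaSG2 from PH4alphaSG1. PH4alphaMP, PH4alphaNE1 and CG31371 start between them and had 3 fragments together over the 3 libraries.

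Over all 17142 annotated genes, 33% were detected in every library and 7130 had no fragment. Of the 27 other genes in the stretch, 2 were detected in every library and 13 had no fragment. The highest was CG2246 at 7.65 ± 4.53 FPKM (SD, n = 3). tmod, which encodes the actin filament capping protein tropomodulin, had 1.94 ± 0.241, and jdp, which encodes a DnaJ domain protein, had 2.10 ± 1.27 without reaching 1 FPKM in replicate 2. CG15539, next to PH4alphaSG1, had 0.631 ± 0.620 FPKM. PH4alphaSG2 and PH4alphaSG1 were thus the highest genes of the stretch in each library.

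**Figure D2:**
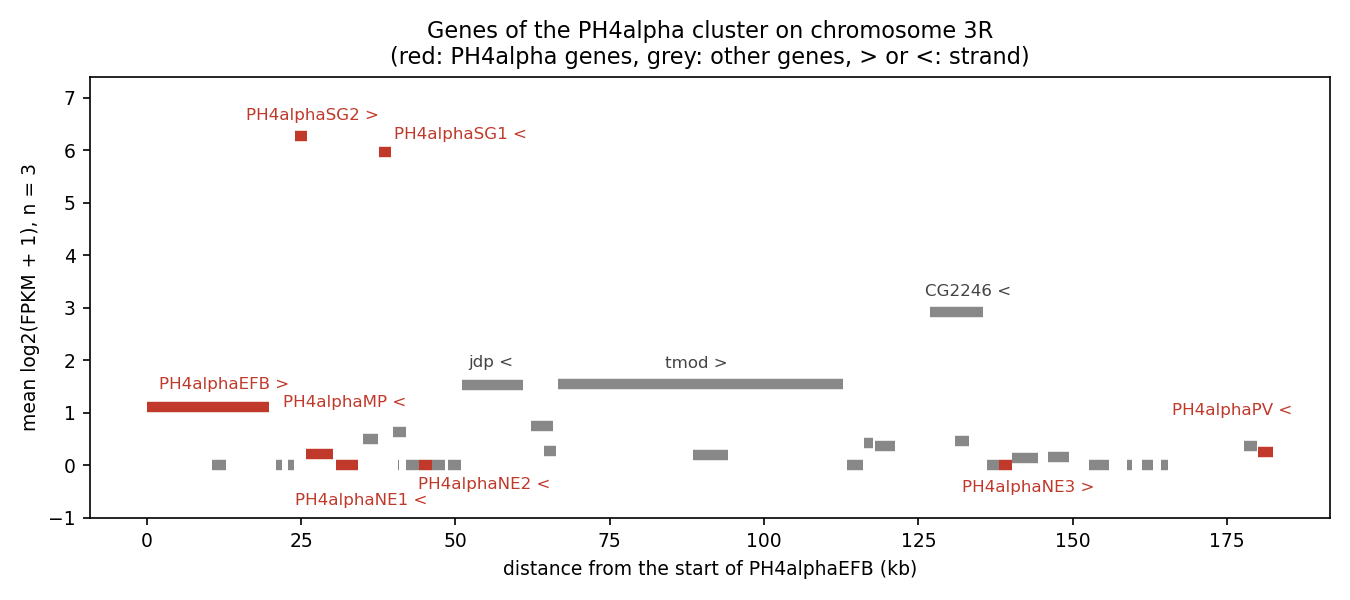
Mean level of the 35 genes of the PH4alpha stretch on 3R as log2(FPKM + 1), against distance in kb from the start of PH4alphaEFB; each bar spans a gene, red for PH4alpha members and grey for other genes. PH4alphaSG2 (6.28) and PH4alphaSG1 (5.98) stand above all other genes, of which CG2246 is the highest (2.92).

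PH4alphaSG2 and PH4alphaMP face each other on opposite strands and overlap at their ends. They share 128 exon bases, which are 7.61% of those of SG2 and 6.80% of those of MP, and the table's name marks the counting as unstranded. At the mean density of SG2, the shared bases would hold 23.3 of its fragments over the 3 libraries, whereas MP was given 1 fragment in all. With even coverage, most fragments in the shared bases were thus not counted for MP. If they were left out for SG2 too, its level per unshared base would be 1.08 times the value given. PH4alphaNE2 shares 64 exon bases with CG34041 on the opposite strand, and the other members share none. How similar the members are in sequence was not analysed here.

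The SG members also had the same order of libraries by value, highest in replicate 3 and lowest in replicate 2. Replicates 1 and 2 were not separated beyond counting error. Replicate 1 over replicate 2 was 1.27-fold for PH4alphaSG2 (95% exact interval 0.880 to 1.81) and 1.43-fold for PH4alphaSG1 (0.946 to 2.15). Replicate 3 exceeded replicate 2 by 1.97-fold for PH4alphaSG2 (95% exact interval 1.49 to 2.65) and 2.40-fold for PH4alphaSG1 (1.74 to 3.36), a comparison of these libraries and of counting error only. With the libraries scaled by median ratios, the folds were 1.87 (1.41 to 2.51) and 2.28 (1.65 to 3.19). The median fold of the 3092 protein-coding genes with a mean of 10 FPKM or more was 1.08. The order of replicate 3 over replicate 1 over replicate 2 was found in 25.3% of those genes. The SD of log2(FPKM + 1) was 0.49 for SG2 and 0.62 for SG1, above the values of 65.7% and 77.7% of those genes, whose median SD was 0.38. The rRNA share of fragments and the fat body markers also differed between these libraries, and their part in this spread was not tested.

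By level and order over the 3 libraries, the protein-coding genes nearest to PH4alphaSG1 were vib, Ufm1 and Uch, at distances of 0.10, 0.17 and 0.20 on the log2(FPKM + 1) scale. vib, which encodes a phosphatidylinositol transfer protein, had 55.5, 39.7 and 102 FPKM in replicates 1, 2 and 3. Those nearest to PH4alphaSG2 were SdhC, a succinate dehydrogenase subunit gene, CG5355 and Yip1d1, at distances of 0.13, 0.18 and 0.20. PH4alphaSG1 was the 68th nearest gene to SG2, at a distance of 0.56. Likeness over 3 libraries is a description of these samples.

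Among ER thiol oxidoreductases, the class to which the beta subunit belongs, all 6 matched genes were detected in every library, beside 40.1% of protein-coding genes. Pdi itself, the gene of the beta subunit, was matched to no identifier of the table by the annotation and was not analysed here. In replicates 1, 2 and 3, ERp60, a disulfide isomerase gene, had 696, 623 and 1110 FPKM (mean 810 ± 263, SD, n = 3). CaBP1, another disulfide isomerase gene of the ER, had 487, 402 and 691 FPKM. By FPKM, both were highest in replicate 3 and lowest in replicate 2, as the SG genes were, and both lay well above them. Replicate 1 over replicate 2 was 1.12-fold for ERp60 and 1.21-fold for CaBP1. With sums outside rRNA genes made equal, it was 0.931 and 1.01, beside 1.05 for SG2 and 1.19 for SG1. Which library was lowest thus depended on scaling for ERp60, whereas replicate 3 stayed the highest for both. Replicate 3 exceeded replicate 2 by 1.78-fold for ERp60 (95% exact interval 1.64 to 1.94) and by 1.72-fold for CaBP1 (1.55 to 1.91).

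The other oxidoreductase genes had lower means than the SG members, although Ero1L lay above both in replicate 2. prtp had 16.7 ± 3.12 FPKM, CG9302 13.4 ± 5.21 and wbl, which encodes Windbeutel, 2.78 ± 0.604 (SD, n = 3). The level of wbl rested on 2, 2 and 4 fragments in replicates 1, 2 and 3. Ero1L, which encodes the oxidase that recharges disulfide isomerases, had 7.62, 89.7 and 10.1 FPKM in replicates 1, 2 and 3. Its high library was the one in which the SG genes were lowest.

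Other hydroxylases that use 2-oxoglutarate were lower. Hph, the prolyl hydroxylase that acts on the hypoxia factor Sima in the cytoplasm and nucleus, had 9.78, 10.9 and 11.3 FPKM in replicates 1, 2 and 3 and was the most even of the 3. Plod, the lysyl hydroxylase that modifies collagen, had 0, 2.09 and 2.41 FPKM, and Asph, an aspartyl hydroxylase gene, had 0.685 ± 0.323 (SD, n = 3). Of these 3 genes, only Hph was detected in every library, beside 40.1% of protein-coding genes. The mean of PH4alphaSG2 was 7.47 times that of Hph and 53.0 times that of Plod.

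Collagen genes were far below the SG members. Col4a1 had 2.60, 7.80 and 7.55 FPKM in replicates 1, 2 and 3, and vkg, the gene of the other collagen IV chain, had 1.54, 2.75 and 3.25. Mp, which encodes the collagen Multiplexin, had 0.316 ± 0.322 (SD, n = 3). Col4a1 and vkg were detected in every library, which is 2 of 3 collagen genes beside 40.1% of protein-coding genes. PH4alphaSG2 was above each collagen gene in 3 of 3 libraries, and its mean was 13.3 times that of Col4a1 and 31.7 times that of vkg.

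The export list was led by general secretion genes. Sar1, the GTPase gene of the COPII coat, had 236 ± 87.1 FPKM and Sec23, a coat subunit gene, 227 ± 12.0 (SD, n = 3), while Loxl1, a lysyl oxidase gene, was lowest at 0.319 ± 0.553. For Sar1, replicate 3 exceeded replicate 2 by 1.99-fold (95% exact interval 1.70 to 2.34), between the folds of SG2 and SG1. For Sec23 the same ratio was 1.04 (0.922 to 1.18). In this list 3 of 6 matched genes were detected, beside 40.1% of protein-coding genes, and Tango1 was not analysed here. Among other basement membrane genes, 4 of 7 were detected, led by trol, the perlecan gene, at 8.90 ± 1.63 FPKM and the laminin gene LanB2 at 6.10 ± 0.638, with wb lowest at 0.235 ± 0.181. All 7 genes for the supply of iron and 2-oxoglutarate were detected, led by the ferritin gene Fer2LCH at 86.1 ± 35.4 FPKM and the metal transporter gene Mvl at 70.7 ± 12.9, with mfrn lowest at 7.27 ± 0.0397.

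Of the 2 known embryonic regulators of the SG genes, sage had 773, 726 and 669 FPKM in replicates 1, 2 and 3, and fkh had 79.8, 47.4 and 65.1. Neither shared the order of the SG genes. The ratio of replicate 3 to replicate 2 was 0.922 for sage (95% exact interval 0.836 to 1.02). CrebA, which encodes an activator of secretory pathway genes, was like the SG genes highest in replicate 3, with 81.4, 91.1 and 209 FPKM. In the list of gland regulators, 6 of 10 genes were detected, beside 40.1% of protein-coding genes. The lowest was rib at 0.0982 ± 0.170 (SD, n = 3).

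**Figure D3:**
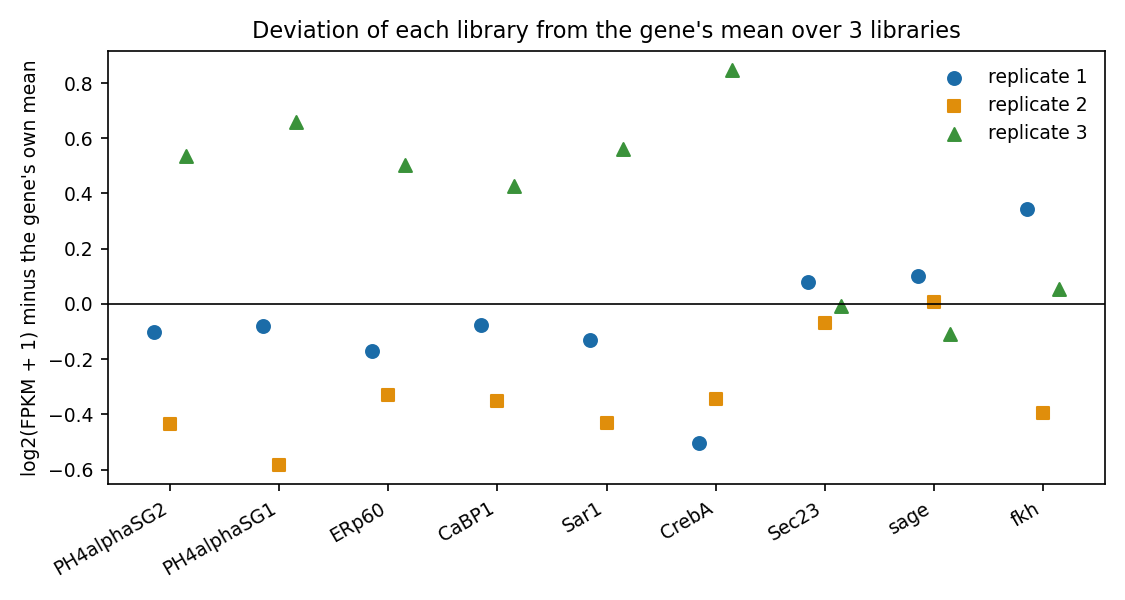
Deviation of each library from the gene's own mean on the log2(FPKM + 1) scale, for the SG members and 7 genes of the ER, the COPII coat and gland regulation. PH4alphaSG2, PH4alphaSG1, ERp60, CaBP1, Sar1 and CrebA are highest in replicate 3, whereas sage is lowest there. The genes were picked after their values were seen.

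Markers of other tissues bear on the low members, since the libraries are bulk RNA, in which few cells of a type and little RNA per cell cannot be told apart. All 9 fat body markers were detected, with summed levels of 4559, 6617 and 6549 FPKM in replicates 1, 2 and 3 and none at 0. Obp99b led at 2132 ± 426 FPKM, followed by Fbp1 at 926 ± 606, and FASN1 was lowest at 4.20 ± 1.71 (SD, n = 3). PH4alphaEFB had 0, 2.45 and 1.88 FPKM in these libraries, from too few fragments to give an order. The part of fat body RNA in the level of PH4alphaEFB was not tested.

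The share to set beside each list here is the 40.1% of protein-coding genes that were detected. Of the markers of epidermis and trachea, 3 of 6 were detected, with summed levels of 12.8 to 20.8 FPKM. The median of their mean levels was 1.90 FPKM, beside 0.847 FPKM for protein-coding genes. The highest was pio at 6.72 ± 1.78, then verm at 5.20 ± 3.66, and ple was at 0 (SD, n = 3). None of the 6 proventriculus and midgut markers was detected; Amy-p and alphaTry were at 0, and Jon99Cii was highest at 0.774 ± 1.34, then Jon65Aiv at 0.738 ± 1.28. PH4alphaPV, named for the proventriculus, had its 1 fragment beside these. Of the hemocyte markers 2 of 7 were detected, with crq at 16.8 ± 8.68, srp at 1.77 ± 0.653 and eater lowest at 0.278 ± 0.481, and of the muscle markers 3 of 6, with TpnC73F at 25.7 ± 12.4, Act57B at 7.60 ± 2.61 and up lowest at 0.542 ± 0.470. The SG members exceeded the highest marker of the hemocyte, muscle, epidermis and proventriculus lists in every library.

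**Figure D4:**
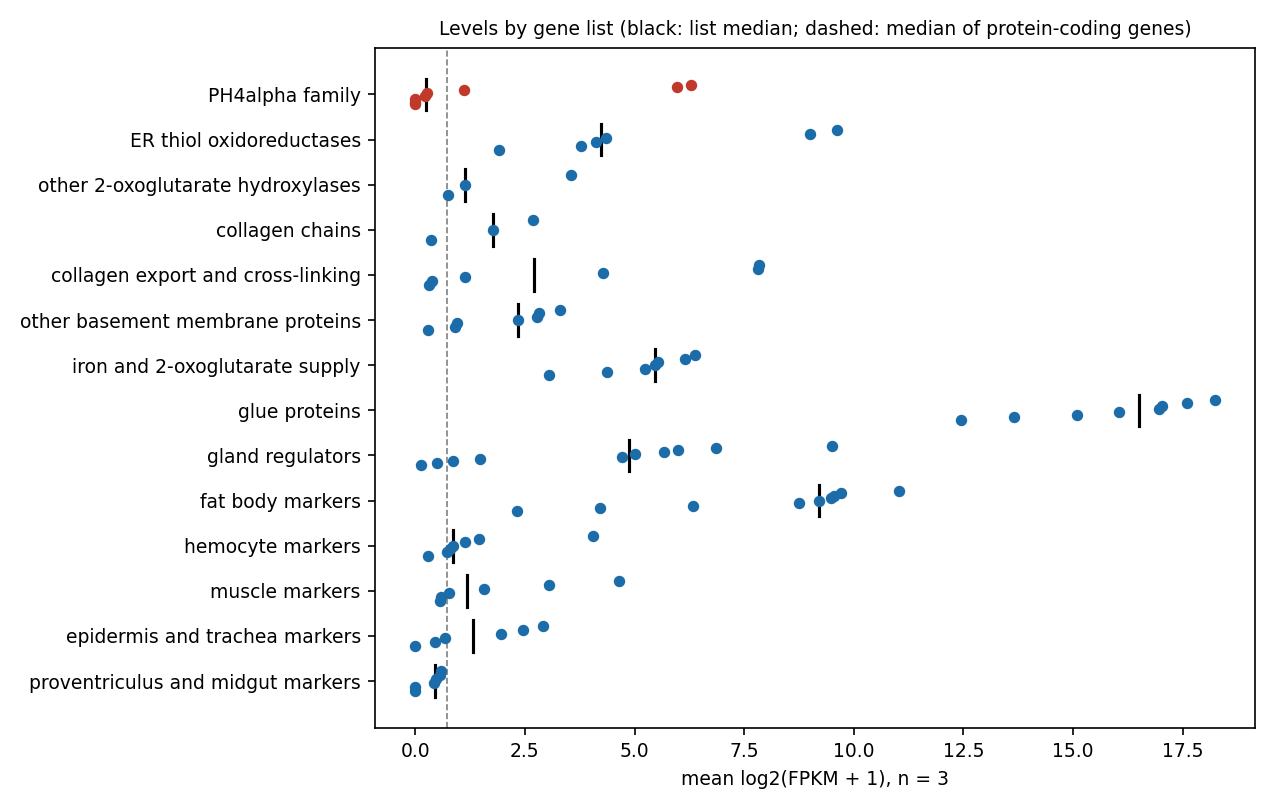
Mean log2(FPKM + 1) over 3 libraries for each gene, by list; points are genes, black marks list medians, and the dashed line the median of protein-coding genes (0.73). The PH4alpha family has a median of 0.24 with 2 members near 6, below the medians of the ER thiol oxidoreductases (4.24) and of the iron and 2-oxoglutarate list (5.46).

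Among the glue proteins, the main cargo of the gland at this stage, Sgs3 had 199524 ± 39418 FPKM, Sgs5 134171 ± 21188, Sgs8 129245 ± 26544, Sgs4 68518 ± 6879, Eig71Ee 35081 ± 3378 and Sgs5bis 12853 ± 1334 (SD, n = 3). By FPKM, the library order of the SG members recurred in none of Sgs3, Sgs4, Sgs7, Sgs8 and Eig71Ee, which were highest in replicate 1. Nor did it recur in Sgs5bis, with 11396, 13152 and 14012 FPKM in replicates 1, 2 and 3. Sgs5, with 132373, 113939 and 156200 FPKM in replicates 1, 2 and 3, and Sgs1, with 6177, 3903 and 7201, did show the order of the SG members. Summed FPKM outside rRNA genes was 1.49e+06 in replicate 1 and 1.24e+06 in replicate 2, a larger step than that of Sgs5. The order of these libraries for Sgs5 thus depends on scaling. Whether glue proteins are hydroxylated was not measured.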

How the data were processed

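The deposited values are FPKM per gene and library, made by the authors. Per the submitters' processing notes, the tools included HISAT2 and DESeq, with no version. Build, annotation, counting program and the depth used for scaling: not given in the sources used here. Libraries were made with a strand-marking kit, per the labels' protocols, while the table's name marks unstranded counting.

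Of the 17278 identifiers, 17142 were found in the Ensembl annotation BDGP6.54 (release 115) and 136 were not. Each FPKM was multiplied by the summed annotated exon length, and 98.7% to 98.8% of the products above 0 fell on whole multiples of a step that is fixed in each library (tolerance 0.01 fragments). The steps correspond to denominators of 499875, 727436 and 945562 fragments, below the recovered totals of 1509430, 1490257 and 1571524. Tested on simulated data for the same 17142 genes, the recovery returned 100% of the simulated counts above 0 in each of 3 libraries. The simulation used the same exon lengths to make and to undo the FPKM. It therefore could not test whether these lengths match those of the authors. Recovered fragments were used only for shares, densities, intervals, ratios and limits. The intervals assume Poisson or binomial counting, and no model of the spread between libraries was fitted to the fragments.

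The pseudocount on the log2 scale was 1, which understates ratios of low genes. The genes named were all members, all genes of the oxidoreductase, hydroxylase, collagen and glue lists, the 2 highest and the lowest of the other lists, genes of the stretch with a mean of at least 1 FPKM, and the 3 nearest genes by Euclidean distance to each detected member. fkh, CG15539, CG31371, CG34041, Amy-p and genes set beside the SG members by library were chosen after their values were seen. The members and the 13 lists were chosen with earlier results of these data known. Of 85 listed genes, 83 were matched. Protein and promoter sequences were not used here. Alternatives were other scalings, pseudocounts, detection limits and backgrounds, unpaired tests, and each library left out. Statistics were run with scipy 1.17.1 and numpy 2.4.6 in Python 3.11.15, tables with pandas 2.3.3 and figures with matplotlib 3.10.9.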

Additional observations from a re-analysis of the deposited data

How the results depend on the processing

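The SG members stayed the detected pair at limits of 0.5, 2 and 5 FPKM, where 43.3%, 35.2% and 25.6% of protein-coding genes were detected. The count was 3 in at least 2 libraries (46.9% of protein-coding genes) or by the mean (48.5%), 2 to 3 with each library left out (41.8% to 43.0%), and 5 with any fragment (67.7%). Rescaling to equal sums (TPM, rRNA included) gave means of 33.7 for PH4alphaSG1 and 40.5 for PH4alphaSG2, lower than the FPKM by more than the SD. TPM without rRNA gave 47.8 and 57.9, which are within the SD of the FPKM. Both scalings change all genes of a library by the same factor. These shifts are therefore a change of unit, and the order of genes within a library stays as it was. With each library left out, the means were 49.8 to 78.5 for SG1, 63.8 to 91.3 for SG2 and 0.941 to 2.16 for EFB. PV minus MP, of 1 fragment each, ran from -0.32 without replicate 2, where its sign turned, to 0.39 without replicate 3. SG1 minus EFB was 6.28 and 7.43 with pseudocounts of 0.1 and 0.01, and EFB minus PV was 1.99 and 3.11, in the same direction. The median of the proventriculus and midgut list fell from above to below the background with protein-coding genes (-0.29), without replicate 1 (-0.42) and without replicate 3 (-0.04), and was 0.27 above it without replicate 2. Without pairing, the exact permutation p was 0.1 for SG1 against EFB, the smallest possible with 3 against 3 values, and 0.6 for SG2 against SG1. The level of SG2 over unshared exon bases, 86.2 FPKM, was an alternative chosen after seeing the data, as were the library leave-outs for genes of the stretch, which gave 2 to 3 detected. Other choices for genes related by protein sequence and for promoter motifs were not run. No paired analysis was possible because there is a single group, so replicate numbers pair no samples between groups; the members were compared within libraries. Depth limits all statements on members of 8 fragments or fewer.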
